A study of Homo sapiens with 8 samples.

Results

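Scavenger and C-type lectin receptors are the surface proteins with which macrophages and other mature myeloid cells take up modified lipoproteins, haemoglobin, microbial sugars and dying cells. The 10 genes described here, of 33045 gene names in the deposited count table, were taken by name: the scavenger receptors CD163, MSR1 and CD36, the mannose receptor MRC1, the C-type lectins CLEC7A, CLEC12A, CLEC4A, CLEC5A and CLEC10A, and the lysosomal membrane protein CD68. The RNA came from KASUMI-1 and THP-1, both acute myeloid leukemia cell lines, given vehicle or 0.5 µM DDP38003, which inhibits LSD1, the histone demethylase encoded by KDM1A, and is written LSD1i below. KASUMI-1, a line with the RUNX1::RUNX1T1 fusion that the study calls sensitive, was harvested after 6 and 72 h. THP-1 cells, monocytic and carrying a KMT2A fusion, are called resistant by the study and were harvested after 24 and 72 h. A single library was made for each line, agent and time, 8 in all, so LSD1i and vehicle were compared within 4 pairs. The p-values therefore reflect only how these libraries spread, which may be technical or come from time. For LSD1i against vehicle, that spread is how far the responses of a line's early and late pairs differ. The test pools it over both lines (2 residual degrees of freedom). It also draws it toward the spread of other genes (median of 15.6 prior degrees of freedom). The times thus stand in for replicates, and each fitted value averages over them. Each line stands for a single leukemia.

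The libraries held 23722972 to 45970766 counted reads, the fewest in KASUMI-1 vehicle at 72 h. KASUMI-1 markers (RUNX1T1, KIT and CD34) summed to 1140 to 1690 CPM (reads scaled to a common library total) in KASUMI-1 and to 3.42 to 15.8 CPM in THP-1. THP-1 markers (HOXA9, MEIS1 and HOXA10) summed to 94.8 to 104 CPM in THP-1 and to 28.2 to 34.6 CPM in KASUMI-1. HOXA9 set the lines apart most, with 1883 to 2662 reads in THP-1 and 29 to 62 in KASUMI-1. HOXA10 had reads in both lines (1472 to 2288 and 619 to 1355). MEIS1, with 1 to 5 and 2 to 3 reads, did not mark THP-1 here. The 6 myeloid markers, which include lysozyme, summed to 1120 to 1430 CPM in THP-1 vehicle and to 5440 to 11600 CPM in THP-1 LSD1i, whereas in KASUMI-1 the ranges overlapped (6900 to 9930 and 7700 to 8990 CPM). The THP-1 rise was that of lysozyme. By edgeR's quasi-likelihood test CSF3R fell there (log2 -0.48 ± 0.14 SE, adjusted p = 0.0371), and MPO, CD33, PTPRC and SPI1 did not pass. MPO, at 206401 to 329425 reads, made most of the KASUMI-1 sum, and lysozyme passed as higher in KASUMI-1 too. In THP-1 the 3 T cell markers summed to 0 to 0.0631 CPM in vehicle and to 0.198 to 0.402 CPM in LSD1i, with CD3E at 0 reads. The LSD1i reads were mostly CD2 (15 and 6, against 0 in both vehicle libraries). CD2 passed edgeR's test as higher (log2 6.34 ± 1.29, adjusted p = 0.00321). In KASUMI-1 it had 8 and 1 reads with vehicle and 13 and 8 with LSD1i. Only LSD1i libraries held enough CD2 reads to bring it into the fit, so a difference was built into its being tested. In KASUMI-1 the T cell markers summed to 1.7 to 2.44 CPM. B cell markers summed to 4.09 to 5.43 CPM in KASUMI-1 and 1.22 to 1.88 CPM in THP-1, and NK cell markers to 1.42 to 2.13 and 8.2 to 14 CPM. The part of all these markers in the results was not tested. Of the red cell and megakaryocyte markers, HBB and PF4 had 0 reads in all libraries, ALAS2 had 0 to 9 reads and ITGA2B had 10 to 26. The level of KDM1A itself, whose protein the inhibitor binds, did not pass the edgeR quasi-likelihood test in KASUMI-1 (log2 -0.17 ± 0.13 SE, adjusted p = 0.419) or in THP-1 (-0.07 ± 0.13, adjusted p = 0.831). In bulk RNA, fewer cells with a transcript and less transcript per cell cannot be told apart.

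As background, LSD1 removes methyl groups from histone H3 lysine 4 and works with the repressors GFI1 and GFI1B, which recruit it to enhancers and promoters of myeloid genes bound by PU.1 and C/EBP factors. Monocytes acquire scavenger receptors as they become macrophages. CD163 takes up haemoglobin bound to haptoglobin, and MSR1 and CD36 take up oxidized lipoproteins. Among the lectins, CLEC7A (Dectin-1) signals through SYK on binding fungal glucans, CLEC5A pairs with the adaptor DAP12 (gene TYROBP), and CLEC12A and CLEC4A carry inhibitory motifs. CLEC10A binds galactose-type sugars and marks some dendritic cells and macrophages.

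The 250 bases upstream of the RefSeq start are shown for CLEC12A, which rose in both lines, for CLEC5A, whose response differed between them, and for CD163, which had the largest fitted rise of the members in THP-1. They are from GRCh38.p14, a later build than the NCBI36 gene models used for counting, and read 5′ to 3′ on the gene's strand. Capitals mark GAGGAA, a purine-rich motif of the PU.1 type, and AATC, the core bound by GFI1 and GFI1B, on either strand (reverse complements TTCCTC and GATT).
CLEC12A (chr12:9971159-9971408, + strand): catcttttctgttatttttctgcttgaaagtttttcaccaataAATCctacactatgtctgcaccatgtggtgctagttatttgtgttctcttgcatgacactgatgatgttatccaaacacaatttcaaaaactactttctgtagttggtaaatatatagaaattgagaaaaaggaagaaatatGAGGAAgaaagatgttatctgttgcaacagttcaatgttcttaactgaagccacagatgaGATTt
CLEC5A (chr7:141946975-141947224, - strand): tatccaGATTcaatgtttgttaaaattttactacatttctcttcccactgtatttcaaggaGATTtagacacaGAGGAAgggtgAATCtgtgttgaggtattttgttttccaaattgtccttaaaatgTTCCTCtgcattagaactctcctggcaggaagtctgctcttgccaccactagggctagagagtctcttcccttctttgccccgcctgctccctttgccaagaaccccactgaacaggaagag
CD163 (chr12:7503778-7504027, - strand): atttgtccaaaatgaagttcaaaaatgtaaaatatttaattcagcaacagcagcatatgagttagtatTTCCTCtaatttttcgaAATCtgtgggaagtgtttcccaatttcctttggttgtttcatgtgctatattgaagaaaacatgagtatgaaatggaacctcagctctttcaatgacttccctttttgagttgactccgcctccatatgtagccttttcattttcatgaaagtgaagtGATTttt
GAGGAA stood 65 bases before the start of CLEC12A, on the reverse strand 182 bases before that of CD163, and 177 and 122 bases before that of CLEC5A, once on each strand. The table held windows for 5 of the 10 members, 10 windows in all since CD36 had several. GAGGAA was in 7 of these 10 windows, against 23.6% of 35116 windows of the table, and AATC was in 9 of 10 against 64.8%. Of the other 2 motifs searched, AATCAC, which contains AATC, was in 2 of 10 windows against 9.02% of all, and TATAAA was in 2 of 10 against 10.7%. The 10 windows share genes, and a match is a description of the letters, not of a bound site.

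Under LSD1i, 2 members rose in KASUMI-1 and 6 in THP-1, and none passed the test as lower. In KASUMI-1, CLEC12A and CLEC4A rose, 2 of the 8 members with reads in the fit, where 7.02% of 16060 genes were called higher and 5.09% lower by edgeR's quasi-likelihood test at an adjusted p under 0.05. In THP-1, CLEC12A, CLEC4A, CLEC5A, CLEC10A, CD163 and CD36 rose, 6 of 9, where 6.51% of genes were called higher and 2.85% lower. The median log2 difference of the members was 0.14 in KASUMI-1 (0.02 over all genes) and 1.64 in THP-1 (-0.01 over all genes). With edgeR's unadjusted p under 0.05, 1 member was lower in KASUMI-1 (CD36) and 0 in THP-1, and DESeq2 called 0 lower in either line. CD163 and CLEC10A entered the fit only through the THP-1 LSD1i libraries, so a difference was built into their passing the filter on low counts, and the members in the fit are not all members.

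**Figure D1:**
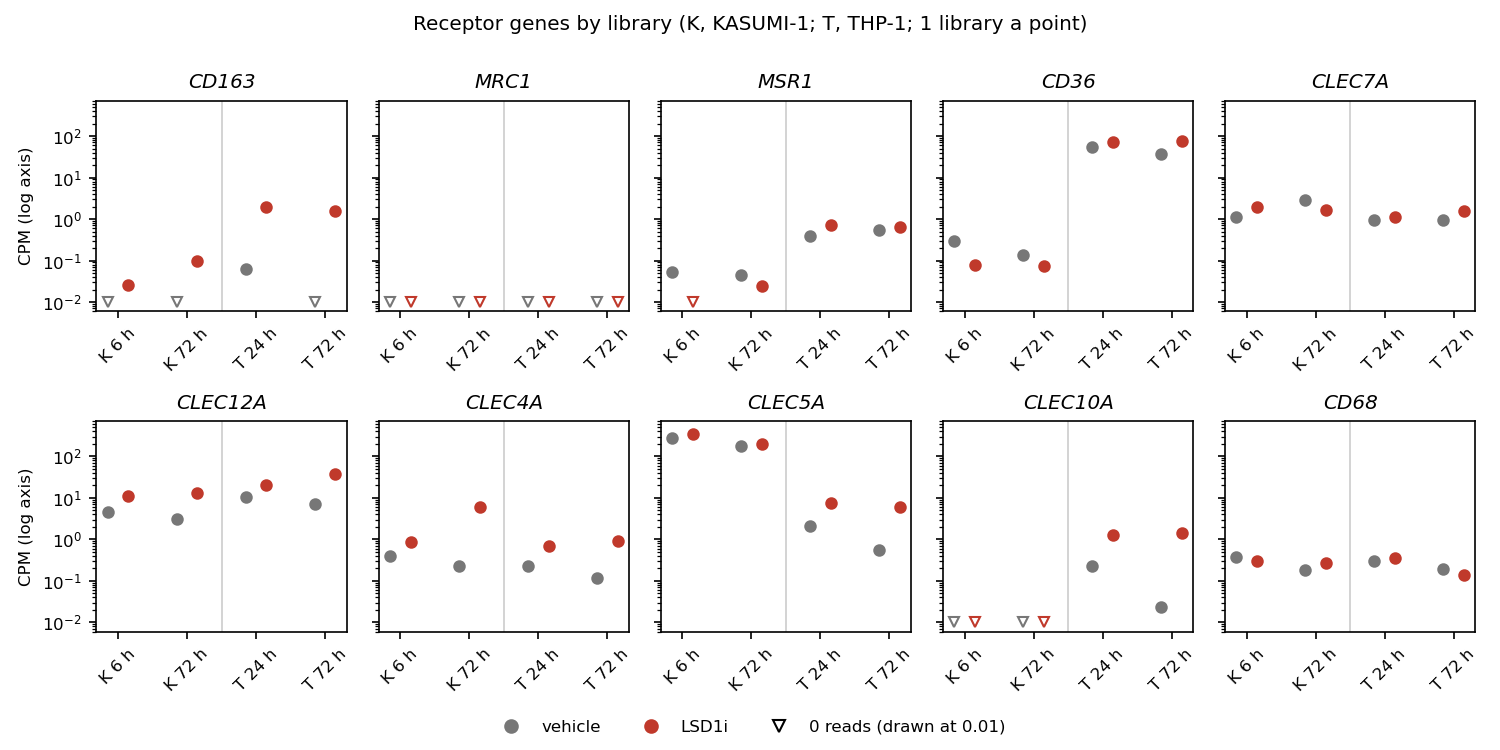
Level of each member in each library, in CPM on a log axis; points are single libraries, grey for vehicle and red for LSD1i, and open triangles mark 0 reads. CLEC12A and CLEC4A lie higher with LSD1i in all 4 pairs, CLEC5A is at 175 to 349 CPM in KASUMI-1 and at 0.546 to 7.31 CPM in THP-1, and CD36 has the opposite order.

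CLEC12A, the inhibitory lectin also known as a surface antigen of leukemic stem cells, rose to a like extent in both lines. In KASUMI-1 its level was 4.54 CPM with vehicle and 11.1 CPM with LSD1i at 6 h, and 3.07 and 13.2 CPM at 72 h. In THP-1 it was 10.7 and 20.7 CPM at 24 h, and 7.24 and 37 CPM at 72 h. Each LSD1i library was above both vehicle libraries of its line, with ratios of 2.44 (95% counting interval 2.04 to 2.92), 4.29 (3.33 to 5.6), 1.93 (1.73 to 2.15) and 5.1 (4.5 to 5.8). These intervals cover counting error only. The fitted log2 rise by edgeR's quasi-likelihood test was 1.65 ± 0.27 in KASUMI-1 (adjusted p = 0.00102) and 1.64 ± 0.25 in THP-1 (adjusted p = 1.75e-04). The difference between the lines was -0.01 ± 0.35 (edgeR adjusted p = 1), which does not show that the responses are equal. Without the THP-1 72 h pair the THP-1 value was 0.93 (edgeR adjusted p = 0.0922), and without the pair term the KASUMI-1 value was 1.65 (adjusted p = 0.0573). The gene model used for counting ran past the end of CLEC1B, with 3202 of its 4792 exon bases there, and the table had 0 rows named CLEC12B, its RefSeq neighbour, so reads of that gene may be included; this was not tested.

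CLEC4A, the dendritic cell lectin DCIR with an inhibitory motif, also rose in both lines, from few reads. KASUMI-1 had 15 reads with vehicle and 34 with LSD1i at 6 h, and 5 and 252 reads at 72 h. THP-1 had 11 and 31 reads at 24 h, and 5 and 32 at 72 h. LSD1i exceeded vehicle in all 4 pairs, and the KASUMI-1 72 h LSD1i library stood far above the other 7. There the ratio was 27.6 (11.7 to 85.7), against 2.2 (1.17 to 4.34) at 6 h, 3 (1.47 to 6.61) and 7.61 (2.94 to 25) in THP-1. The fitted rise by edgeR's quasi-likelihood test was 2.90 ± 0.54 in KASUMI-1 (adjusted p = 0.00256) and 2.13 ± 0.61 in THP-1 (adjusted p = 0.0329). The responses of the lines did not differ by the test (-0.77 ± 0.90, edgeR adjusted p = 0.68), but did without the KASUMI-1 6 h pair (-2.64, adjusted p = 0.0126). The KASUMI-1 call rests on the 72 h pair, without which the value was 1.13 (edgeR adjusted p = 0.357), and the THP-1 call was lost without either THP-1 pair (2.87, adjusted p = 0.161, without 24 h and 1.56, adjusted p = 0.632, without 72 h).

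CLEC5A, the activating lectin of myeloid cells, was the member whose response differed between the lines. Its level in KASUMI-1 was 280 CPM with vehicle and 349 CPM with LSD1i at 6 h, and 175 and 194 CPM at 72 h. In THP-1 it was 2.14 and 7.31 CPM at 24 h, and 0.546 and 5.85 CPM at 72 h. The KASUMI-1 ranges for the agents overlap, while both THP-1 LSD1i libraries lay above both vehicle libraries. By edgeR's quasi-likelihood test the log2 difference was 0.23 ± 0.17 in KASUMI-1 (adjusted p = 0.428) and 2.35 ± 0.25 in THP-1 (adjusted p = 3.25e-06). The difference of these responses was 2.12 ± 0.30 (edgeR adjusted p = 4.98e-04), the single member called of 8 in that comparison, where 3.07% of genes were called higher and 2.62% lower; the median of the members was 0.98 and of all genes -0.02. The early times, 6 and 24 h, differ between the lines, so line and time cannot be told apart there. TYROBP, the DAP12 adaptor of CLEC5A, was singled out after its values were seen: it had 22 to 82 reads in KASUMI-1 and 5297 to 8682 in THP-1, so the line with more CLEC5A reads had fewer of its adaptor.

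CLEC10A and CD163 went from nearly no reads to a low level in THP-1. CLEC10A had 11 reads with vehicle and 56 with LSD1i at 24 h, and 1 and 51 at 72 h. Its ratio was 5.41 (2.81 to 11.5) at 24 h and 60.6 (10.4 to 2440) at 72 h, and edgeR's quasi-likelihood fit gave 3.33 ± 0.53 (adjusted p = 3.87e-04). Without the 72 h pair that value was 2.41 (edgeR adjusted p = 0.0824), and DESeq2 gave 4.14 ± 4.57 (adjusted p = 0.879). In KASUMI-1 no CLEC10A read was counted in any library, which allows a level of up to 0.0731 to 0.134 CPM at 3 reads a library.

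CD163, the haemoglobin scavenger receptor, had 3 reads in THP-1 vehicle and 86 in LSD1i at 24 h, and 0 and 56 reads at 72 h. Both LSD1i libraries were far above both vehicle libraries. The ratio of summed reads was 53 (17.8 to 260), and the 72 h level was at least 22.2-fold higher with 3 reads taken as the limit for that vehicle library. By edgeR's quasi-likelihood test CD163 rose by 5.61 ± 0.59 in THP-1 (adjusted p = 4.98e-06). At 1.92 and 1.58 CPM the LSD1i levels were nevertheless low. KASUMI-1 had 0 reads in both vehicle libraries and 1 and 4 with LSD1i, a difference that edgeR did not call (adjusted p = 0.215) and that this depth cannot resolve.

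CD36, the fatty acid and oxidized lipoprotein receptor, was abundant in THP-1 with vehicle and rose by less. THP-1 had 53.6 CPM with vehicle and 73.8 CPM with LSD1i at 24 h, and 37.9 and 76.3 CPM at 72 h. Both LSD1i libraries were above both vehicle libraries, with ratios of 1.38 (1.31 to 1.45) and 2.02 (1.89 to 2.15). edgeR's quasi-likelihood test gave 0.73 ± 0.15 (adjusted p = 0.00252), and 0.45 (adjusted p = 0.442) without the 72 h pair. KASUMI-1 had 11, 3, 3 and 3 reads (vehicle and LSD1i at 6 h, then at 72 h), with a fitted -1.49 ± 0.66 (edgeR adjusted p = 0.154). The difference of response was 2.22 ± 0.68 (edgeR adjusted p = 0.0624), and it was called by DESeq2 (2.28, adjusted p = 0.039) and by edgeR without the filter on low counts (2.21, adjusted p = 0.0265).

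**Figure D2:**
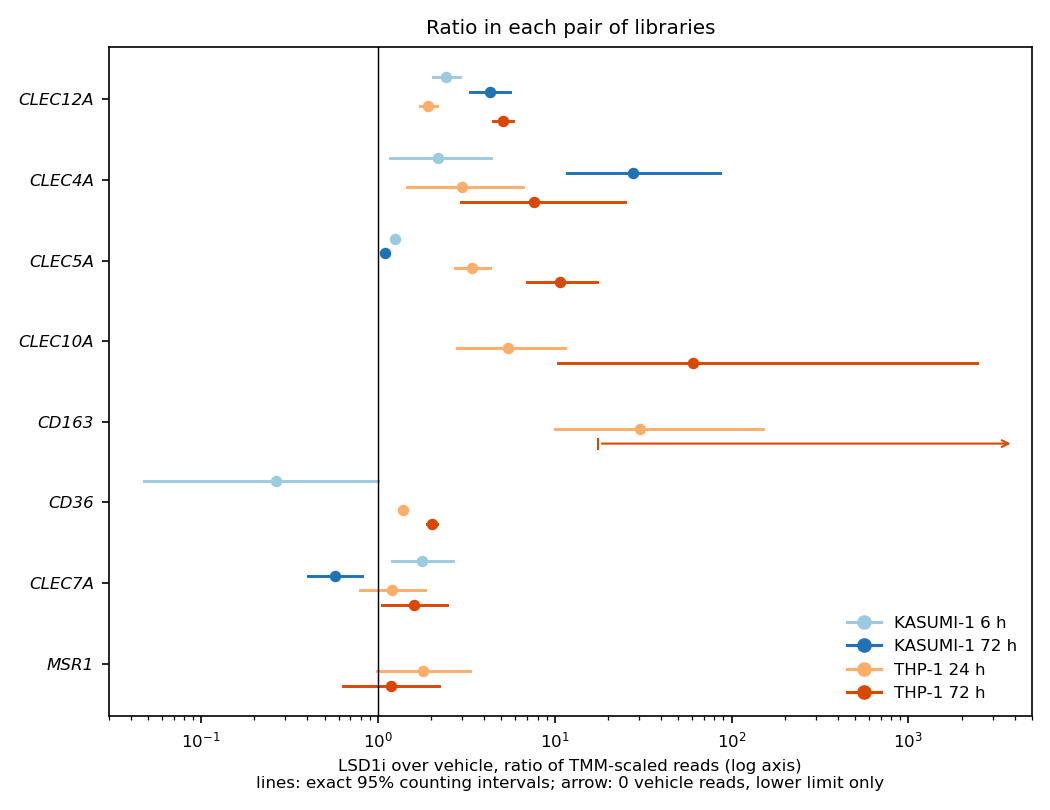
LSD1i over vehicle in each pair of libraries, as the ratio of reads scaled by TMM library sizes on a log axis, with exact 95% counting intervals; pairs with fewer than 10 reads in all are left out. CLEC12A and CLEC4A exceed 1 in all 4 pairs, and CLEC5A exceeds 3 in the THP-1 pairs only.

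The other 4 members passed no test under LSD1i in either line. CLEC7A had 1.1 CPM with vehicle and 1.96 CPM with LSD1i at 6 h and 2.89 and 1.66 CPM at 72 h in KASUMI-1, so the pairs point in opposite directions (ratios 1.78 and 0.572). In THP-1 it ranged from 0.946 to 1.55 CPM, with a fitted 0.47 ± 0.35 (edgeR adjusted p = 0.537). MSR1, the class A scavenger receptor, had 0 to 2 reads in each KASUMI-1 library. In THP-1 it had 19 and 32 reads at 24 h and 23 and 23 at 72 h (0.55 ± 0.40, edgeR adjusted p = 0.524). MRC1 had 0 reads in all 8 libraries. A second gene name, MRC1L1, shares all of its exon lengths and its total of 5171 exon bases with MRC1 and also had 0 reads; reads that map to several places were not counted, so these zeros do not show that MRC1 was absent.

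CD68 could not be measured by these counts. Of its 1855 exon bases, 1769 (95.4%) are also exon bases of EIF4A1, a translation factor, in the gene models used, and reads over both genes were not assigned; 86 bases remain. Its counts were 4 to 16 reads in every library, while EIF4A1 had 13341 to 22388. The edgeR difference was 0.04 ± 0.54 in KASUMI-1 and 0.04 ± 0.52 in THP-1 (adjusted p = 0.984 in both). These values say nothing of CD68 transcript level.

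**Figure D3:**
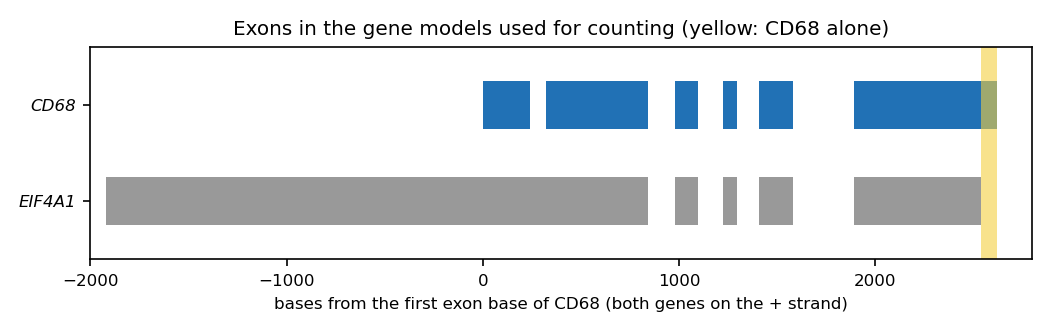
Exons of CD68 and EIF4A1 in the gene models used for counting, as distance in bases from the first exon base of CD68. All but the last 86 exon bases of CD68 (yellow) overlap EIF4A1 exons.

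With vehicle, the lines differed most in CLEC5A and CD36. The vehicle libraries were harvested at 6 and 72 h in KASUMI-1 and at 24 and 72 h in THP-1, so line and early time cannot be told apart. Over the vehicle libraries, fitted with 15456 genes, 3 members were higher in THP-1 and 1 lower, where edgeR called 30.1% of genes higher and 26.4% lower; the median of the 7 members in the fit was -0.24 and of all genes 0.00. CD36 was higher by 7.63 ± 0.36 (edgeR adjusted p = 5.61e-08), a ratio of summed reads of 200 (119 to 366). CLEC5A was lower in THP-1, at -7.37 ± 0.51 (edgeR adjusted p = 8.28e-07), with 14603 reads in the KASUMI-1 and 125 in the THP-1 vehicle libraries. MSR1 was higher by 3.17 ± 0.64 (edgeR adjusted p = 0.00173) on 3 and 42 reads, a ratio of 9.46 (3.02 to 47.7), and CLEC12A by 1.23 ± 0.29 (edgeR adjusted p = 0.00418). MSR1 and CD36 entered this fit through their THP-1 reads, so a difference was built into their passing the filter on low counts. CLEC7A was not called (edgeR adjusted p = 0.0732) on 107 and 86 reads, but passed without the filter on low counts (-0.95, adjusted p = 0.0156) and without the KASUMI-1 6 h vehicle library (-1.59, adjusted p = 8.02e-05).

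Per kilobase of exon that no other gene shares, CLEC5A was the highest member in all 4 KASUMI-1 libraries (50 to 99.3 CPM per kilobase). CLEC12A (0.641 to 2.75), CLEC4A (0.173 to 4.78) and CLEC7A (0.388 to 1.02) followed there with overlapping ranges. CD68 is left out of this order because its few reads are divided by only 86 bases. In the 4 THP-1 libraries CD36 came first (13.6 to 27.5), then CLEC12A (1.51 to 7.72), whose range overlaps that of CLEC5A (0.156 to 2.08). The ranges of CLEC10A (0.0134 to 0.814), CLEC4A (0.0926 to 0.705), CLEC7A (0.333 to 0.547), CD163 (0 to 0.462) and MSR1 (0.0727 to 0.13) lay below that of CLEC12A and had no fixed order across the libraries.

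The pair ratios were larger at 72 h than at the first time for CLEC12A and CLEC4A in both lines and for CLEC5A, CLEC10A, CD36 and CLEC7A in THP-1, with 1 library at each time and no test. They were smaller at 72 h for CLEC5A (1.25, then 1.1) and CLEC7A (1.78, then 0.572) in KASUMI-1 and for MSR1 in THP-1 (1.79, then 1.19). Vehicle levels of several members were lower at 72 h in both lines. CLEC7A in KASUMI-1 went the other way, to 2.62 times its 6 h level in vehicle (1.75 to 3.97) and to 0.845 times in LSD1i (0.601 to 1.19). In THP-1 vehicle, CLEC7A was at 1.03 times (0.658 to 1.61) and MSR1 at 1.37 times (0.713 to 2.66) the 24 h level. In THP-1, CLEC5A in vehicle at 72 h was 0.255 times its 24 h level (0.155 to 0.404), while in LSD1i it was 0.8 times (0.669 to 0.955). CLEC10A was 0.103 times (0.00239 to 0.707) in vehicle and 1.15 times (0.772 to 1.71) in LSD1i, and CD36 0.707 (0.664 to 0.753) and 1.03 (0.982 to 1.09). CLEC12A differed from these in that its LSD1i level also went up, 1.79 times (1.64 to 1.95), while vehicle went to 0.676 (0.584 to 0.78). In KASUMI-1, vehicle at 72 h was 0.676 times the 6 h level for CLEC12A (0.504 to 0.899), 0.627 for CLEC5A (0.604 to 0.65) and 0.565 for CLEC4A (0.161 to 1.64). With LSD1i the same ratios were 1.19 (1.05 to 1.35), 0.556 (0.541 to 0.572) and 7.1 (4.95 to 10.5).

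**Figure D4:**
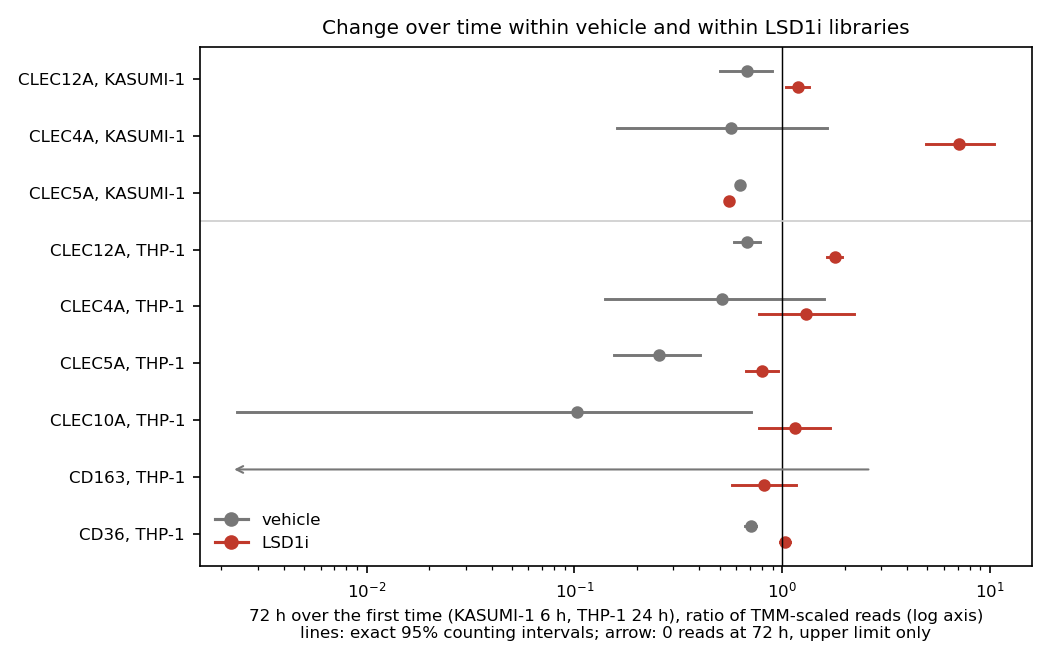
Level at 72 h over the first time point within vehicle (grey) and within LSD1i (red) libraries, as a ratio of TMM-scaled reads on a log axis with exact 95% counting intervals. In THP-1, CLEC5A, CLEC10A and CD36 lie below 1 in vehicle and nearer to 1 in LSD1i.

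The genes whose 4 pair ratios lay nearest to a member's, among 11648 genes of sufficient level, were looked up for the 3 members whose average log2 CPM reached 1. For CLEC12A they were MBNL2 (distance 0.66 on the log2 scale), OAS1 (0.70) and SGCB (0.76). For CLEC5A they were IFI30, a lysosomal thiol reductase (0.60), SLC2A4, an insulin-responsive glucose carrier (0.78), and FCAMR (0.89). For CD36, CDR2L (0.61), SIX2 (0.72) and EFNA3 (0.84) came nearest, but its KASUMI-1 ratios rest on 3 to 11 reads a library, and the order of these genes is uncertain by that counting error.

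Of the other scavenger receptors, 3 of 15 rose in each line (median 0.04 in KASUMI-1 and 0.02 in THP-1). For this list and those that follow, the share of all genes that edgeR called is the background. It was 7.02% higher and 5.09% lower in KASUMI-1, and 6.51% higher and 2.85% lower in THP-1. LRP1, which clears apoptotic cells and many ligands, rose in both, by 1.36 ± 0.42 in KASUMI-1 (edgeR adjusted p = 0.0447) and 2.07 ± 0.30 in THP-1 (adjusted p = 1.1e-04). SCARB2 (0.69 ± 0.13) and STAB1 (1.62 ± 0.38) were the others in KASUMI-1, and CD14 (2.40 ± 0.30) and MARCO (1.37 ± 0.31) in THP-1. DESeq2 called 1 higher in KASUMI-1, where it gave no adjusted p for 10 of the 15, LRP1 and STAB1 among them, and 2 in THP-1. With edgeR's test 0 of 15 fell in either line; at an unadjusted p under 0.05 there were 1 and 4, and DESeq2 called 1 and 0.

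Of 21 other C-type lectins in the fit, 2 rose and 1 fell in KASUMI-1 (median 0.00), and 5 rose in THP-1 (median 0.06). Only 20 had reads in KASUMI-1, and CLEC4G, with none, enters that median as 0.00. Among all genes, 7.02% were called higher and 5.09% lower in KASUMI-1, and 6.51% and 2.85% in THP-1. CD209 (DC-SIGN), a mannose-binding lectin of dendritic cells, rose by 2.26 ± 0.18 in THP-1 (edgeR adjusted p = 1.33e-07). ASGR2 (1.05 ± 0.18), THBD (0.76 ± 0.14) and CD93 (0.49 ± 0.13) also rose there. In KASUMI-1 CLEC2B rose (0.57 ± 0.15) and CD69, an early activation antigen, fell (edgeR adjusted p = 8.47e-04), from 1909 to 1198 reads at 6 h and from 1042 to 773 at 72 h.

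Among 22 adaptors and kinases of lectin signalling, 1 rose in KASUMI-1 (median 0.02) and 5 in THP-1 (median 0.13). The share of all genes called higher was 7.02% in KASUMI-1 and 6.51% in THP-1. MALT1, the paracaspase downstream of CARD9 and BCL10, rose in both, by 0.78 ± 0.15 (edgeR adjusted p = 0.00278) and 1.17 ± 0.15 (adjusted p = 2.35e-05). FCER1G, the adaptor of several activating receptors, rose in THP-1 by 1.80 ± 0.13 (edgeR adjusted p = 3.49e-08), from 7518 to 10139 reads in vehicle to 23600 to 31158 with LSD1i. The kinases FYN (0.87 ± 0.22) and LYN (0.55 ± 0.13) also rose there.

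Beside the lists of this paragraph, edgeR called 7.02% of all genes higher and 5.09% lower in KASUMI-1, and 6.51% and 2.85% in THP-1. Around CD36, 3 of 20 lipid-handling genes rose in KASUMI-1 (ABCA1 1.72 ± 0.53, SOAT1 0.60 ± 0.13, MYLIP 0.48 ± 0.15; median 0.04), and DESeq2 called 1 higher. Only 19 of these genes had reads in KASUMI-1, and FABP4, with none, enters that median as 0.00. ABCA1 had 6 reads with vehicle and 15 with LSD1i at 6 h, and 1 and 15 at 72 h. In THP-1, SOAT1 (0.83 ± 0.13) and FABP5 (0.53 ± 0.13) rose, and VLDLR fell by 1.27 ± 0.17 (edgeR adjusted p = 5.87e-05; median of the list 0.21). Of 11 genes that handle haem and iron after CD163 uptake, BACH1, the haem-sensing repressor, rose in KASUMI-1 (0.44 ± 0.13, edgeR adjusted p = 0.0397; median -0.15), where DESeq2 called 0 higher. In THP-1 the haem-degrading HMOX1 rose by 1.57 ± 0.24 (edgeR adjusted p = 2.58e-04) and BLVRB by 1.02 ± 0.15 (adjusted p = 9.38e-05; median 0.22). Of 9 lysosomal membrane genes related to CD68 by place, edgeR called 0 in either line (medians 0.11 and 0.06); at an unadjusted p under 0.05 there was 1 higher and 1 lower in KASUMI-1 and 0 in THP-1, and DESeq2 called 1 lower in KASUMI-1.

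Of 18 transcription factors of macrophages, 6 rose and 1 fell in KASUMI-1 (median 0.38), and 8 rose in THP-1 (median 0.40). Only 17 had reads in KASUMI-1, and MAF, with none, enters that median as 0.00. For both lists of this paragraph, 7.02% of all genes were called higher and 5.09% lower in KASUMI-1, and 6.51% and 2.85% in THP-1. STAT6 rose in both lines (0.79 ± 0.13 in KASUMI-1 and 0.74 ± 0.12 in THP-1). IRF8 (0.64 ± 0.18) rose and CEBPE fell by 0.80 ± 0.15 in KASUMI-1, while MITF (1.96 ± 0.23), KLF4 (1.61 ± 0.18) and TFEB (0.87 ± 0.17) rose in THP-1. Of 14 markers of macrophage polarisation, 4 rose in KASUMI-1 (median 0.42) and 6 in THP-1 (median 1.06). CD86, a costimulatory ligand, rose by 4.16 ± 0.26 in KASUMI-1 (edgeR adjusted p = 2.22e-08) and by 5.55 ± 0.25 in THP-1 (adjusted p = 8.07e-11). IL1RN, the interleukin-1 receptor antagonist, rose in both (2.36 ± 0.72 and 2.13 ± 0.16), as did MS4A4A (3.45 ± 0.18 and 1.90 ± 0.15). The KASUMI-1 rise of IL1RN (edgeR adjusted p = 0.0397) rests on few reads. There it had 3 reads with vehicle and 10 with LSD1i at 6 h, and 0 and 11 at 72 h. TNF rose in THP-1 by 2.16 ± 0.24.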

How the data were processed

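The authors deposited 1 table of whole-number read counts per gene for 8 libraries, not normalized. Per the file headers, featureCounts 1.5.2 counted reads on Ensembl release 54 gene models (NCBI build 36) with no option for strand, reads over several genes or reads mapping to several places, so reads over 2 genes or mapping to several places are missing from the counts and antisense genes cannot be separated. Per the submitters' processing notes, FastQC 0.10.0, TopHat2 2.0.10, Subread, edgeR and hg18 were used; filters on reads are not given in the sources used.

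From these counts, edgeR 4.0.16 (R 4.3.3) fitted the quasi-likelihood F-test with TMM scaling and filterByExpr at a minimum count of 10 to all 8 libraries, with 1 term a pair (4 pairs) and, in each line, a coefficient for LSD1i (2 residual degrees of freedom). Vehicle libraries had a fit of their own. Adjustment was by Benjamini and Hochberg over all genes, at 0.05. The SE is the log2 difference divided by the root of F. Pairs come from line and time in the labels. Ratios in a pair have exact conditional 95% counting intervals, which reads without molecular identifiers make too narrow. Scripts were tested on simulated data.

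The 10 members and all gene lists were chosen with earlier results of these data known. The text names all members, up to 3 called genes a list and line by largest change at an average log2 CPM of at least 1, and the 3 genes with nearest ratios for each member at that level. Some genes that this rule names are counted but their values are not reported here. Chosen after values were seen were: TYROBP, called list genes outside that rule, the 4 promoter motifs and which promoters are shown, and leaving CLEC10A untested where a line had no reads. Alternatives were RLE scaling, no filter, DESeq2 1.42.0, no pair term, each pair or vehicle library left out and, for pair ratios, a prior count of 0.5 or library totals.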

Additional observations from a re-analysis of the deposited data

Results flagged for a closer look

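CLEC5A was the member for which the response differed between the lines by the interaction contrast of edgeR's quasi-likelihood fit: the THP-1 response exceeded the KASUMI-1 response by 2.12 on the log2 scale (SE 0.30, adjusted p = 4.98e-04). It was higher with LSD1i in both THP-1 pairs, by ratios of 3.41 and 10.7, and by 1.25 and 1.1 in the KASUMI-1 pairs. The value was 2.01 without the pair term, where edgeR's adjusted p was 0.284.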

How the results depend on the processing

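Of 243 other values for single members over the alternatives, 206 had the direction and side of the threshold reported, 13 lost a call, 6 gained one and 18 changed sign. The count of members changed in KASUMI-1, 2, was 1 with DESeq2 (no adjusted p was given for CLEC4A there), 0 without the pair term, and 1 to 2 with a pair left out. In THP-1 the count of 6 was 4 with DESeq2 and without the pair term, and 2 to 6 with a pair left out. The different response, 1 member, was 2 with DESeq2 and without the filter, 0 without the pair term and 1 to 2 with a pair left out. Between vehicle lines the count of 4 was 6 without the filter, 5 with all libraries in 1 fit and 4 to 5 with a library left out. Over all genes, the 1945 called in KASUMI-1 and 1503 in THP-1 were 100 and 454 without the pair term and 1610 and 994 with DESeq2, which called 720 higher and 890 lower in KASUMI-1 against 1128 and 817. The signs that changed were of values not called: CLEC7A in KASUMI-1 was 0.00 without the filter and -0.80 to 0.82 with a pair left out, and its difference of response -0.35 to 1.27. CD68 was -0.01 in KASUMI-1 without the pair term, -0.27 to 0.59 with a pair left out, and -0.44 to 0.26 in THP-1. Its difference of response was 0.02 with RLE scaling, 0.09 without the pair term, and -0.54 to 0.32 with a pair left out. Its vehicle difference was -0.58 to 0.45 with a library left out. The CLEC12A difference of response was 0.01 with RLE scaling, 0.03 without the pair term, and -0.71 to 0.69 with a pair left out. That of CLEC4A was -2.64 (edgeR adjusted p = 0.0126) without the KASUMI-1 6 h pair and 1.01 without the 72 h pair. The cause was not tested. With library totals, 3 of 34 pair ratios moved beyond their counting interval, and none with a prior count of 0.5. Members with few reads (CD163, CLEC10A, MSR1 and CLEC4A) are limited by depth.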
